A study of Mus musculus with 6 samples.

Results

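The methionine cycle and the methyl transfer reactions that draw on it were examined in liver through 9 genes, Mat1a, Mat2a, Gnmt, Ahcy, Bhmt, Cbs, Cth, Nnmt and Pemt, chosen by name. A gene was followed through every probe set (a group of short array probes that reads the same transcript) that the array annotation assigns to that gene alone, and its gene value was the probe set with the highest mean over the arrays. By this rule 8 of the 9 genes had a value, from 9 probe sets, out of 18194 genes with such a probe set. Mat2a, the methionine adenosyltransferase of tissues outside the liver and of proliferating cells, had no probe set assigned to it alone in the annotation used and was not analysed here. The livers were those of 3 male Ghrh-KO mice (GHRH-KO), in which the growth hormone-releasing hormone gene is disrupted in the whole animal, and of 3 male wild-type littermates (control). Both groups had a mixed C57BL6 and 129SV background, were 10 months old by the study's methods and were fasted for 6 to 8 h. Each mouse was measured on its own Affymetrix Mouse Genome 430 2.0 array, and values are RMA values (background-corrected, quantile-normalized hybridization signals) on the log2 scale. The question was whether transcripts of this pathway differ between GHRH-KO and control liver.

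Hepatocytes carry out most of the body's methionine metabolism. Methionine adenosyltransferase joins methionine to ATP and makes S-adenosylmethionine (SAM), the methyl donor of the cell. Methyltransferases pass that methyl group on to glycine, phospholipids, nicotinamide and many other acceptors, leaving S-adenosylhomocysteine, which is split to homocysteine. Homocysteine is either methylated back to methionine, with betaine or methylfolate as the donor, or sent through transsulfuration to cysteine.

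None of the 8 measured genes passed the test for a change in GHRH-KO liver. Mat1a, Cth and Nnmt read higher and Pemt lower, while by gene value Gnmt, Ahcy, Bhmt and Cbs lay close to their control levels. The dimmer of the 2 Cbs probe sets had a log2 fold change of -0.63 (95% interval -1.40 to 0.15). A gene was called at a Benjamini-Hochberg adjusted p under 0.05, over all probe sets tested with limma, and a fold change above 1.5 or below 0.67. On that rule 0 of 8 were called, where 219 of 12469 genes were called in all (1.76%). At an unadjusted p under 0.05 there were 4 of 8, against 19.3% of all genes. Of these 4, the genes Mat1a, Cth and Nnmt were on the higher side (9.15% of all genes) and Pemt on the lower side (10.1%). The GHRH-KO and control arrays did not overlap in 5 of the 8 genes (28.4% of all genes), with Mat1a, Ahcy, Bhmt and Cth higher (12.7%) and Pemt lower (15.7%) in every GHRH-KO array. The median log2 fold change of the 8 genes was 0.13, and that of all genes tested was 0.00.

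**Figure D1:**
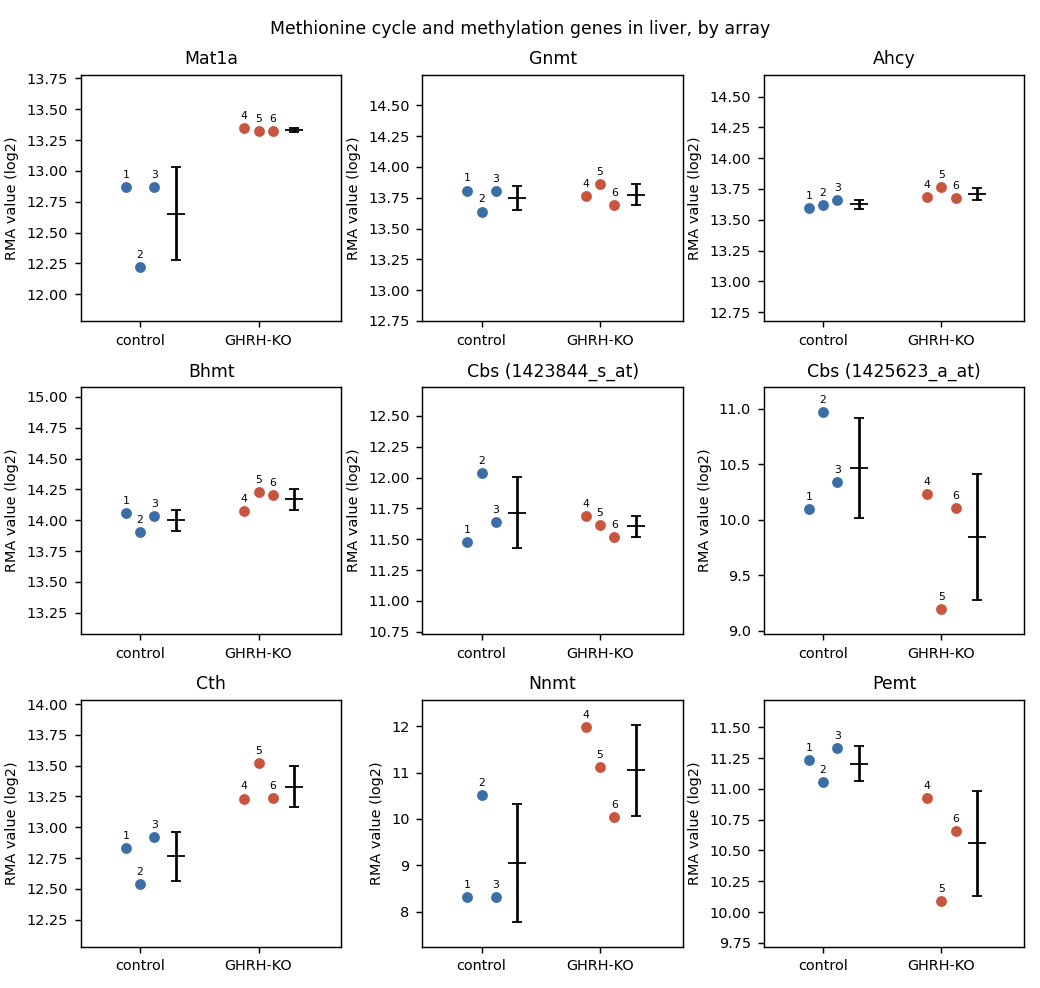
RMA values (log2) of the 9 member probe sets in the 3 control arrays (blue) and the 3 GHRH-KO arrays (red), numbered by replicate, and black marks for the group means with their SD (each panel has its own range, of at least 2 units). The Mat1a, Ahcy, Bhmt and Cth points of GHRH-KO all lie above those of control, the Pemt points all lie below, and the Nnmt groups overlap through control replicate 2 and GHRH-KO replicate 6.

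Ghrh itself is a gene of the hypothalamus and its probe set read 4.40 to 4.75 over the 6 arrays, so it does not check the genotype in liver, whereas Igf1, the growth factor that liver makes under growth hormone, read 12.2 to 12.5 in control and 6.72 to 6.92 in GHRH-KO. Control replicate 2 and GHRH-KO replicate 5 stood somewhat apart, with an interquartile range of the deviation from the probe set median of 0.316 and 0.357 against 0.185 to 0.249 in the other arrays. Hepatocyte markers (7 of 8 measured, 0 called, none at background) had a mean level of 13.65 to 13.66 in control and 13.5 to 13.7 in GHRH-KO. In whole liver, fewer cells of a type and less RNA per cell cannot be told apart.

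Mat1a encodes the methionine adenosyltransferase of the adult hepatocyte, which makes SAM. It read 12.87, 12.22 and 12.87 in control and 13.35, 13.32 and 13.33 in GHRH-KO (array values are given in the order of replicates 1 to 3 and 4 to 6). The 3 GHRH-KO arrays were nearly level and all above control, and control replicate 2 was the lowest of the 6. The mean was 12.65 ± 0.38 (SD, n = 3) in control and 13.33 ± 0.01 in GHRH-KO, a log2 fold change of 0.68 (standard error 0.19, 95% interval 0.23 to 1.13, limma adjusted p = 0.140). As a ratio this was 1.60, with an interval of 1.17 to 2.19. Without control replicate 2 the log2 fold change was 0.46 (adjusted p = 0.177), and its standard error narrowed to 0.11. Mat2b, the regulatory subunit of the enzyme made from Mat2a, had a log2 fold change of 0.58 (95% interval -0.13 to 1.29, adjusted p = 0.355).

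Gnmt encodes glycine N-methyltransferase, an abundant liver enzyme that uses up surplus SAM by methylating glycine to sarcosine. It read 13.81, 13.64 and 13.80 in control and 13.77, 13.86 and 13.69 in GHRH-KO, and the groups overlapped throughout. The log2 fold change was 0.02 (standard error 0.11, 95% interval -0.24 to 0.29, limma adjusted p = 0.937), and its sign turned when control replicate 2 or GHRH-KO replicate 5 was left out and when arrays were weighted. As a ratio, the 95% interval ran from 0.844 to 1.22, within the limits used for a call. By gene value, this interval lay wholly within 0.67 to 1.5 for 4 of the 8 genes, as it did for 55.5% of all genes. The 4 were Gnmt, Ahcy, Bhmt and Cbs, the last by its brighter probe set only.

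Ahcy encodes the hydrolase that splits S-adenosylhomocysteine, which otherwise inhibits methyltransferases, into adenosine and homocysteine. It read 13.59, 13.62 and 13.66 in control and 13.69, 13.77 and 13.68 in GHRH-KO. The GHRH-KO arrays lay just above the control arrays, by a gap far smaller than the limit for a call. The log2 fold change was 0.09 (standard error 0.10, 95% interval -0.15 to 0.33, limma adjusted p = 0.684). Among 5 tested relatives and partners of these enzymes 0 were called. Ahcyl2, which encodes a protein similar to Ahcy, had a log2 fold change of -0.35 (95% interval -0.63 to -0.06, adjusted p = 0.207).

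Bhmt encodes betaine-homocysteine methyltransferase, which returns homocysteine to methionine with a methyl group from betaine. It read 14.06, 13.90 and 14.04 in control and 14.07, 14.23 and 14.21 in GHRH-KO. The groups did not overlap, but control replicate 1 and GHRH-KO replicate 4 were almost equal. The log2 fold change was 0.17 (standard error 0.11, 95% interval -0.09 to 0.43, limma adjusted p = 0.457). These signals stood near the top of the scale. The Bhmt values were 0.34 to 0.79 log2 units below the brightest probe set of the same array, those of Gnmt 0.71 to 1.06 and those of Ahcy 0.80 to 1.09. Those of Cth (1.05 to 2.15) and Mat1a (1.19 to 2.48) reached close to the same range, and whether signal at this level is compressed was not tested.

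Cbs encodes cystathionine beta-synthase, which commits homocysteine to transsulfuration, and Cth encodes cystathionine gamma-lyase, which releases cysteine in the next step. The brighter Cbs probe set read 11.48, 12.03 and 11.64 in control and 11.69, 11.61 and 11.51 in GHRH-KO, with control replicate 2 highest and the groups overlapping. Its log2 fold change was -0.11 (standard error 0.16, 95% interval -0.50 to 0.27, limma adjusted p = 0.746), and became 0.05 without control replicate 2. The dimmer Cbs probe set read 10.09, 10.97 and 10.34 in control and 10.23, 9.19 and 10.11 in GHRH-KO. Here control replicate 2 was again the highest array and GHRH-KO replicate 5 the lowest, and GHRH-KO replicates 4 and 6 lay among the control values. The log2 fold change of the dimmer set was -0.63 (95% interval -1.40 to 0.15, adjusted p = 0.358). By its suffix (s) the brighter set can match transcripts of more than 1 gene, and the dimmer set (a) matches several transcripts of the same gene.

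Cth read 12.83, 12.54 and 12.92 in control and 13.23, 13.52 and 13.24 in GHRH-KO. Every GHRH-KO array was above every control array, and control replicate 2 was the lowest. The mean was 12.77 ± 0.20 (SD, n = 3) in control and 13.33 ± 0.16 in GHRH-KO, a log2 fold change of 0.56 (standard error 0.15, 95% interval 0.21 to 0.91, limma adjusted p = 0.125). This was the lowest adjusted p of the 8 genes, and the ratio of 1.48 was also below the 1.5-fold limit. Across the 6 arrays, the genes whose values were most like those of Cth were Tut4 (Pearson's r = 0.996), Zbtb14 (r = 0.995) and Abcc1 (r = 0.995), none of them called. All 6 arrays, and the contrast of the genotypes, are shared by such correlations, and 236 genes reached an r above 0.95 with Cth.

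Nnmt encodes nicotinamide N-methyltransferase, which transfers the methyl group of SAM to nicotinamide and is found in liver, fat and fibroblasts. It read 8.31, 10.52 and 8.32 in control and 11.99, 11.12 and 10.03 in GHRH-KO. Control replicates 1 and 3 were the lowest arrays, and control replicate 2 was higher than GHRH-KO replicate 6, so the groups overlapped. The mean was 9.05 ± 1.27 (SD, n = 3) in control and 11.05 ± 0.98 in GHRH-KO. The log2 fold change of 2.00 had a wide interval (standard error 0.70, 95% interval 0.35 to 3.64, limma adjusted p = 0.205). With 1 array left out it ran from 1.53 without GHRH-KO replicate 4 to 2.73 without control replicate 2 (adjusted p = 0.131). The ratio was thus 3.99 with all arrays, and 2.88 to 6.63 with 1 left out.

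Markers of other cells that could carry Nnmt were read on the same arrays. Of the stellate cell or fibroblast markers, 8 of 8 were measured and 0 were called, with a median log2 fold change of 0.25 and a mean level of 8.33 to 8.75 in control and 8.72 to 9.06 in GHRH-KO. By gene value all 8 had a log2 fold change above 0, and 2 were higher at an unadjusted p under 0.05 (9.15% of all genes). These were Pdgfrb, a receptor of stellate cells and pericytes, and Col3a1, a fibrillar collagen, both named after their values were seen. Pdgfrb stood at 0.90 (limma adjusted p = 0.0884, higher in every GHRH-KO array), and its other probe set at 0.18 (adjusted p = 0.437). Col3a1 stood at 1.16 (adjusted p = 0.199, groups overlapping). By array, the mean levels of the stellate cell or fibroblast markers were 8.75, 8.33 and 8.42 in control and 8.72, 8.92 and 9.06 in GHRH-KO. Of the adipocyte markers, 4 of 6 were measured and 3 of those were at or under 4.75, the highest value of Ghrh, in both group means, with a mean level of 4.02 to 4.47 in control and 4.05 to 4.13 in GHRH-KO. Kupffer cell or macrophage markers (8 of 8 measured, 0 called) had a mean level of 7.28 to 8.65 in control and 7.35 to 8.62 in GHRH-KO. Of these markers, 6 had a log2 fold change above 0 and 2 below. At an unadjusted p under 0.05, 1 was higher (9.15% of all genes) and 0 were lower (10.1%). The 1 was Cd68, at 1.19 (limma adjusted p = 0.155, higher in every GHRH-KO array), also named after its values were seen. Of lymphocyte, endothelial cell and cholangiocyte markers, 2, 7 and 3 passed the intensity filter and 0 were called. Of the cholangiocyte markers 1, Sox9, was lower at an unadjusted p under 0.05 (10.1% of all genes), at -0.54 (limma adjusted p = 0.140). The part of these cells in the Nnmt signal was not tested.

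Pemt encodes phosphatidylethanolamine N-methyltransferase, a liver enzyme that makes phosphatidylcholine by using SAM for each methyl group added. It read 11.23, 11.05 and 11.33 in control and 10.92, 10.09 and 10.66 in GHRH-KO. All GHRH-KO arrays were below all control arrays, and GHRH-KO replicate 5 was the lowest. The mean was 11.20 ± 0.14 (SD, n = 3) in control and 10.56 ± 0.42 in GHRH-KO, a log2 fold change of -0.65 (standard error 0.22, 95% interval -1.16 to -0.14, limma adjusted p = 0.190). As a ratio this was 0.639, with an interval of 0.449 to 0.910. Without GHRH-KO replicate 5 the log2 fold change was -0.41 (adjusted p = 0.268), and without GHRH-KO replicate 4 it was -0.83 (adjusted p = 0.142).

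Since growth hormone acts on hepatocytes through STAT5, the 250 bases before each annotated start of the members were searched for the STAT5 element TTCNNNGAA and for the E-box CACGTG, which MYC and related factors bind. Both motifs read the same on either strand, and no match of the one overlapped a match of the other. RefSeq starts (GRCm38.p6) were listed for 6 of the 9 members, with 7 starts in all, 2 of them of Pemt. No start was listed for Mat1a, Cth and Nnmt, so the genes that read higher at an unadjusted p under 0.05 were not searched. TTCNNNGAA was found before 1 of the 7, the upstream start of Pemt, with its first base at position -23 from the start, and in 7.02% of 32851 such regions. CACGTG was found before Cbs alone, at -229, and in 6.02% of regions. Both Pemt regions are shown because Pemt was the member below control in every GHRH-KO array, on the minus strand at chr11:60040189-60040438 (upstream start) and chr11:60037006-60037255 (downstream start), 5′ to 3′, with the matched element in capitals. A match of letters describes the sequence and does not show a bound site.
Pemt upstream start: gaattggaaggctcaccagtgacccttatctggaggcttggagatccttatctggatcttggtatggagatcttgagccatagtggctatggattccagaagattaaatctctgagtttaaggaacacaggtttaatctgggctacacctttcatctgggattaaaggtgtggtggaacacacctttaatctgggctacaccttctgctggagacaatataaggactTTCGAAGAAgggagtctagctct
Pemt downstream start: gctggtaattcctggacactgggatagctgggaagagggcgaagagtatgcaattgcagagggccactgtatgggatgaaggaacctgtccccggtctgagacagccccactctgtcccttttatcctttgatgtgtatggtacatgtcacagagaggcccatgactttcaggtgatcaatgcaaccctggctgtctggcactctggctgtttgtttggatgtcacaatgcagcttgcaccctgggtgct

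**Figure D2:**
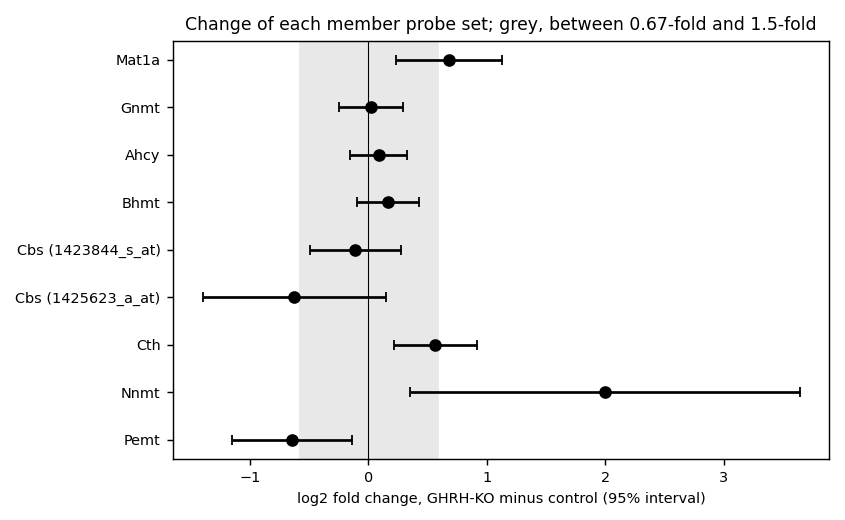
Log2 fold change, GHRH-KO minus control, of each member probe set with its 95% interval from limma (3 arrays per group). The grey band spans 0.67-fold to 1.5-fold. Gnmt, Ahcy, Bhmt and the brighter Cbs probe set lie wholly inside it, the intervals of Mat1a, Cth and Nnmt lie above 0 and that of Pemt below 0, and the Nnmt interval of 0.35 to 3.64 is the widest.

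Neighbouring reactions were described with 8 lists of 102 genes outside the members. Of these, 95 had a probe set and 90 passed the intensity filter. In the 90, 1 gene rose (0.786% of all genes did so) and 1 fell (0.97%). With an unadjusted p under 0.05 as the limit, 14 lay above control (9.15% of all genes) and 19 below (10.1%). The median log2 fold change of the 90 genes was 0.07.

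The gene that fell was Kyat1, listed among genes of the transsulfuration outlet and cysteine metabolism, which encodes a kynurenine aminotransferase that also splits cysteine conjugates. It read 8.35, 9.05 and 8.32 in control and 6.67, 6.15 and 6.24 in GHRH-KO. Its log2 fold change was -2.22 (standard error 0.24, 95% interval -2.78 to -1.66, limma adjusted p = 0.00795), and its other 3 probe sets, 1 of them called, had log2 fold changes of -2.37 to -1.08. It was the 1 gene called of 12 tested in that list, whose median log2 fold change was -0.19. Of the 12, 4 were lower at an unadjusted p under 0.05 (10.1% of all genes) and 1 was higher (9.15%). Every GHRH-KO array was below control in 5 (15.7% of all genes) and above it in 2 (12.7%).

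The gene that rose was Tcn2, of the remethylation and cobalamin list, which encodes the plasma carrier of cobalamin, a cofactor of methionine synthase. It read 11.07, 10.76 and 10.92 in control and 11.73, 11.86 and 11.66 in GHRH-KO, a log2 fold change of 0.83 (standard error 0.13, limma adjusted p = 0.0296). This rested on 1 of 5 probe sets, of the _x_at kind that can cross-hybridize, and the other 4 gave log2 fold changes of 0.00 to 0.34. The Tcn2 call was lost without any 1 of the 6 arrays. Both Tcn2 and Kyat1 (as Ccbl1) stand in the study's own list of changed genes from these arrays, which is not independent evidence. Of the 7 tested genes of the Tcn2 list 6 had a log2 fold change above 0, and the median was 0.34.

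In the folate cycle, which supplies the methyl group for methionine synthase, 0 of 15 tested genes were called (at an unadjusted p under 0.05, 3 were higher and 3 lower, beside the same 9.15% and 10.1% of all genes). Mthfd1l, a mitochondrial enzyme that releases formate, read 5.34, 5.84 and 5.43 in control and 6.35, 7.32 and 6.55 in GHRH-KO (log2 fold change 1.20, adjusted p = 0.0847), and was called with array weights. Mthfd2, a mitochondrial folate enzyme best known in proliferating cells, had a log2 fold change of -0.36 (adjusted p = 0.250). Of 13 tested genes of choline, betaine and glycine oxidation 0 were called. Chka, the kinase that begins phosphatidylcholine synthesis from choline, lay closest to the threshold. It read 9.06, 9.21 and 8.94 in control and 8.40, 7.74 and 7.96 in GHRH-KO, a log2 fold change of -1.04 (95% interval -1.47 to -0.60, adjusted p = 0.0502). Its other probe sets gave -1.45 and -1.16. Chka was called in 5 of 15 alternatives, with a mean of at least 7 required, quantile normalization repeated, a trended and robust variance, array weights, or GHRH-KO replicate 4 left out. Sardh, which oxidizes the sarcosine made by Gnmt, had a log2 fold change of 0.57 (adjusted p = 0.0670).

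Of 18 other SAM-dependent methyltransferases tested 0 were called, and their median log2 fold change was 0.02. Hnmt, which methylates histamine, had a log2 fold change of 0.49 (adjusted p = 0.289), and Prmt5, a protein arginine methyltransferase, one of -0.63 (adjusted p = 0.180). Of 11 tested genes of polyamine synthesis and methionine salvage 0 were called. Mtap, which starts the salvage of methionine from the by-product of polyamine synthesis, had a log2 fold change of 0.51 (adjusted p = 0.0735), and Mri1, the next isomerase of that route, one of -0.39 (adjusted p = 0.121). Of 9 tested genes that use nicotinamide or its products 0 were called. Among them Nadk, a kinase that makes NADP, had a log2 fold change of 0.51 (adjusted p = 0.0774). Aox3, an aldehyde oxidase that acts on the methylated nicotinamide made by Nnmt, read 12.68, 12.58 and 12.90 in control and 11.94, 11.95 and 12.15 in GHRH-KO (log2 fold change -0.71, 95% interval -1.02 to -0.40, adjusted p = 0.0576), and was called in 3 of the alternatives (a mean of at least 7, the trended and robust variance, and array weights).

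**Figure D3:**
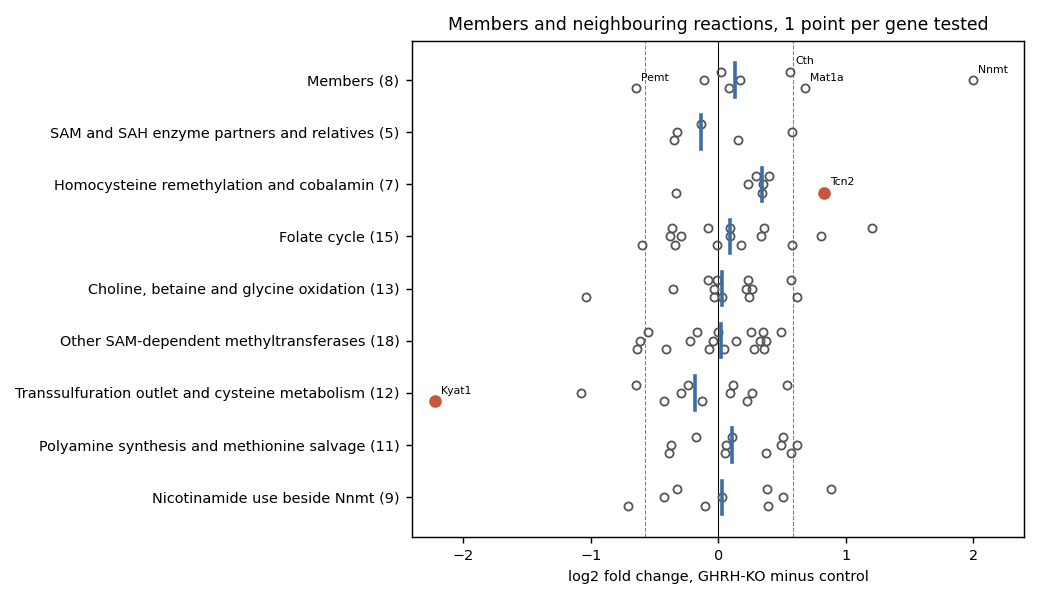
Log2 fold change, GHRH-KO minus control, of the 8 members and of 90 genes of 8 neighbouring lists, 1 point per gene tested (the number of genes in parentheses). Red points were called, blue bars are list medians and dashed lines mark 0.67-fold and 1.5-fold. Tcn2 and Kyat1 are the called genes, and the list medians lie between -0.19 and 0.34.

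Methionine metabolism is spread unevenly along the liver lobule, so zonal markers were read beside the members. Pericentral markers (9 of 9 measured, 0 called) had a mean level of 11.1 to 11.3 in control and 11.2 to 11.3 in GHRH-KO. Of the 9, 4 had a log2 fold change above 0 and 5 below. Every GHRH-KO array was above control in 2 (12.7% of all genes) and below it in 2 (15.7%). At an unadjusted p under 0.05, 2 were higher (9.15%) and 0 lower (10.1%). The 2 were Glul at 0.48 (limma adjusted p = 0.145, other probe set -0.03) and Oat at 0.45 (limma adjusted p = 0.177), named after their values were seen. Periportal markers (7 of 9 measured, 0 called) had a mean level of 11.3 to 11.4 in control and 10.6 to 11.2 in GHRH-KO, with the lowest value in GHRH-KO replicate 4. In this array the brighter probe set of Hsd17b13, a lipid droplet protein, read 7.76, against 11.9 to 12.4 in the others. Its dimmer probe set read 9.20 there, the highest of the 6 arrays. GHRH-KO replicates 5 and 6, without a low Hsd17b13, also had mean levels (11.01 and 11.22) under every control array (11.27 to 11.38). Of the 7, 5 had a log2 fold change below 0 and 2 above (median -0.28). Every GHRH-KO array was below control in 3 (15.7% of all genes) and above it in 1 (12.7%). At an unadjusted p under 0.05, 2 were lower (10.1%) and 1 higher (9.15%). The lower ones were Cdh1 at -1.30 (limma adjusted p = 0.152) and Cyp2f2 at -0.39 (limma adjusted p = 0.170). The higher one was Pck1 at 0.62 (limma adjusted p = 0.125, other probe sets -0.72 and 0.30). These genes too were named after their values were seen. The part of the zones in the values of the members was not tested.

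**Figure D4:**
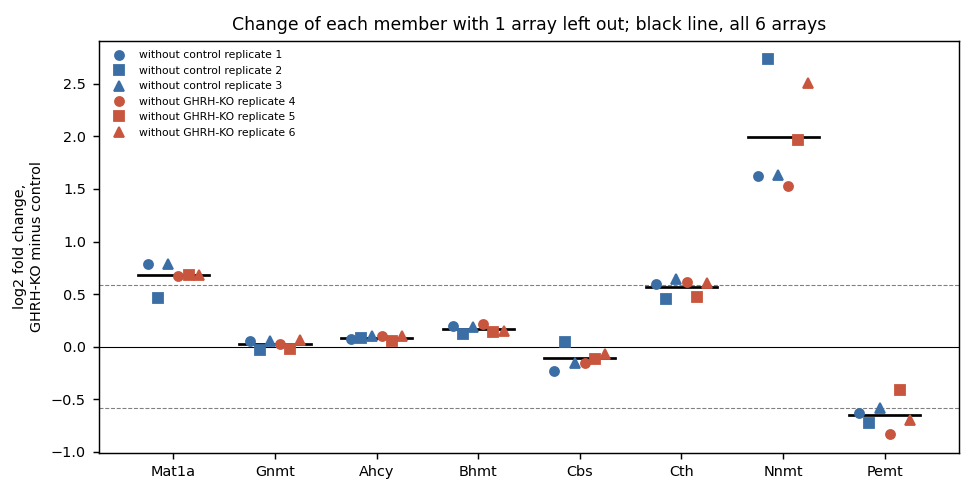
Log2 fold change of each member with all 6 arrays (black line) and with each array left out in turn (blue, a control array; red, a GHRH-KO array; dashed lines, 0.67-fold and 1.5-fold). Nnmt moves most, from 1.53 to 2.73, and Gnmt and Cbs change sign, while Mat1a and Cth stay above 0 and Pemt below 0.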

How the data were processed

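Liver RNA of 3 control and 3 GHRH-KO mice was hybridized to 1-colour Affymetrix Mouse Genome 430 2.0 arrays, 1 mouse per array. The authors deposited RMA values on the log2 scale, in which background was corrected, arrays were quantile-normalized and the probes of a probe set summarized; the RMA version is not given in the sources used here. Quantile normalization fixes the distribution of each array, so a shift shared by most genes cannot be seen. Scanner files and scan dates were not analysed here, and no batch is given in the labels.

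Probe sets were named by the platform annotation, in which 34958 have 1 gene, 932 several and 9211 none listed, and those with several were left out. After 64 control probe sets were removed, the brightest by their mean over the 6 arrays, as many as the study kept, entered limma 3.58.1 (lmFit, eBayes, two-sided) in R 4.3.3, without covariates, with Benjamini-Hochberg adjustment over all of them. The threshold and the number of probe sets kept follow the study's methods. The criterion does not: the study kept probe sets by a detection test against background, and here they were ranked by mean. Intervals are 95% intervals from the same fit. Error bars are SD over mice, and the number of arrays, 3 per group, limits the precision. The 9 members, the 8 lists and the cell type markers were chosen with earlier results of these data known. Genes named from the lists are those called and otherwise those with the lowest p in each direction, and the 3 genes most like Cth were named because Cth had the lowest p of the members. Tested on simulated data with 50 changed probe sets per effect size among as many as were tested, the fit for GHRH-KO minus control recovered 48% of log2 changes of 1, 62% of -1, 76% of 2 and 82% of -2. The simulated spread was Gaussian, independent and alike in all arrays, unlike the real arrays, and few probe sets were changed. These shares therefore need not hold for the real data. Alternatives were other intensity filters, normalization, variance models, array weights and probe set choices, and leaving out each array. Promoter sequences were those of RefSeq on GRCm38.p6.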

Additional observations from a re-analysis of the deposited data

How the results depend on the processing

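In all 15 alternatives 0 of the members with a value were called, and the lowest adjusted p of a member was 0.0697 (Mat1a, with array weights). Of 117 member fold changes under the alternatives 111 kept their direction. The other 6 were of Gnmt, whose log2 fold change was -0.0539 with array weights, -0.0330 to 0.0638 with 1 array left out (below 0 without control replicate 2 or GHRH-KO replicate 5) and -0.0768 without both of these, and of Cbs, at -0.231 to 0.0482 with 1 array left out (above 0 without control replicate 2) and 0.0434 without both. Leaving out both was chosen after seeing the data. The cause was not tested. At an unadjusted p under 0.05, Nnmt and Pemt were lost without control replicate 1 or 3 and Nnmt without GHRH-KO replicate 4 or 5, and Bhmt was added with a trended, robust variance. The number of pathway genes called, 2, was 4 among probe sets with a mean of at least 7, 5 with the trended, robust variance, 7 with array weights, 3 with quantile normalization repeated and 3 with the probe set of lowest p, 1 without both arrays named above, and 1 to 2 with any 1 array left out. It was 0 without probe sets of suffix s, x or a, which also left no value for Cbs, Nnmt and Pemt. Over all genes, the 219 calls became 536 with array weights and 82 to 166 with 1 array left out. No paired analysis was possible because the labels give no litter or pair for the mice.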
